A study of Homo sapiens with 6 samples.

Results

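The nuclear genes for the subunits of the mitochondrial respiratory chain and ATP synthase were examined in EndoC-βH1 cells, with DMSO or AZD7762. Members were taken by symbol (NDUFA, NDUFB, NDUFC, NDUFS, NDUFV, SDHA to SDHD, UQCR, CYC1, COX4 to COX8 and ATP5 genes), leaving out assembly factors and the ATP synthase inhibitor, with a mean of at least 1 CPM over the 6 samples. CPM are counts scaled to a common library total. Of 90 candidate protein-coding genes, 80 met this level, with 36 in complex I, 4 in complex II, 10 in complex III, 13 in complex IV and 17 in complex V. NDUFA4 and its relative NDUFA4L2 were counted in complex IV. Each file listed 60671 gene identifiers.

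EndoC-βH1 is a human β cell line made from fetal pancreas, and every sample was of this 1 line, labelled wild type. AZD7762 is an inhibitor of the checkpoint kinases CHEK1 and CHEK2, and DMSO is its vehicle. Cells were kept for 1 h in 0.5 mM glucose and then for 1 h in either 0.5 or 20 mM glucose, with DMSO (3 samples) or 1 µM AZD7762 (3 samples) present in both steps. The labels do not give the glucose concentration of the second step or the library kit for single samples, and do not say whether replicates were separate cultures, so p-values measure the spread between these samples.

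In the inner mitochondrial membrane, complexes I and II pass electrons from NADH and succinate to ubiquinone, complex III passes them to cytochrome c, and complex IV passes them to oxygen. The proton gradient made on the way drives ATP synthase, complex V. In β cells, ATP made from glucose closes potassium channels, and the depolarization that follows triggers insulin release. Most subunits are encoded in the nucleus, and the rest, including the central subunits of complexes I, III and IV, in mitochondrial DNA.

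The libraries held between 20486391 and 29402440 counts, and a count of 3 corresponded to 0.102 to 0.146 CPM, a limit that covers counting error only. Genes of β cells were present, with INS at a mean of 1333 CPM, CHGA at 3741, PDX1 at 362 and IAPP at 19.6. Of 14 markers of other cell types 13 were matched, and SST (234 CPM), KRT19 (26.6), CPA1 (23.7), COL1A1 (12.3), GCG (1.47) and COL3A1 (0.967) were also present. PRSS1 and CELA3A had 0 counts, and PTPRC, PPY and VWF were under 0.1 CPM on average. The summed level of the 13 was 259.9 to 287.4 CPM with DMSO and 310.7 to 336.5 CPM with AZD7762, mostly SST. SST, a hormone of δ cells, and CPA1, an acinar enzyme, were higher in every AZD7762 sample, each at a log2 fold change of 0.24 (edgeR's adjusted p was 0.16 for SST and 0.308 for CPA1), and 0 of the 6 tested markers were called. Their part in the results for the subunits was not tested. In bulk RNA, fewer cells of a type and less RNA per cell cannot be told apart.

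The promoters of the members share sequence features that the symbols did not select. Letters bound by 3 activators of respiratory genes were searched on both strands of RefSeq promoters (GRCh38.p14, 250 bases before to 50 bases after the start), which were found for 64 of the 80 members. GCGCANGCG, bound by NRF1, was in 22 member promoters (34.4%) and in 14.3% of the 12049 promoters of tested genes. A longer form, the same 9 letters followed by C, was searched first and was in 16 members (25% against 11.3%), and the letters were shortened after those counts had been seen. CCGGAAG, the core of ETS factors such as GABPA, was in 20 (31.2% against 18.3%). AAGATGGCG, bound by YY1, was in 7 (10.9% against 3.69%). At least 1 of these was in 39 member promoters (60.9%) and in 31.8% of those of tested genes (36 members, 56.2% against 29.7%, with the longer NRF1 form), while TATAAA was in 5 members (7.81% against 5.75%). TGACGTCA, bound by CREB, was in 5 (7.81% against 3.21%), and TCAAGGTCA, bound by ESRRA, in 1 (1.56% against 0.199%). A match is a description of the letters and not a site. The ETS letters end with the AAG that begins the YY1 letters, so matches of both can overlap there.

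The 100 bases before the start are shown for members that held letters of 2 of these motifs there (ATP5PF, UQCR11), for SDHA and UQCRC1, the per-length extremes of complexes II and III, and for NDUFB7 and COX6B1, which had the highest log2 fold changes in complexes I and IV. These windows were chosen after values and matches were seen. Capitals mark the matched letters on either strand, in the 9-letter form for NRF1.
ATP5PF, chr21:25735055-25735154, minus strand: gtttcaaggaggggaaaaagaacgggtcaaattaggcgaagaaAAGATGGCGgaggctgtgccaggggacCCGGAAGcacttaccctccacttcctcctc
UQCR11, chr19:1605463-1605562, minus strand: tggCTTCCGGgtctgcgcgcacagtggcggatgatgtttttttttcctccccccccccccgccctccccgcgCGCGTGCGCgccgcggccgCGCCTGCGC
SDHA, chr5:218220-218319, plus strand: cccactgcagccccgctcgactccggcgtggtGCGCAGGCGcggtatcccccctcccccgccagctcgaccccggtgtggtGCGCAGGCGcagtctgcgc
UQCRC1, chr3:48609647-48609746, minus strand: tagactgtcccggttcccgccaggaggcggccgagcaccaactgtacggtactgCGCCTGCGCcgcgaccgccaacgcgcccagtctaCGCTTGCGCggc
NDUFB7, chr19:14572067-14572166, minus strand: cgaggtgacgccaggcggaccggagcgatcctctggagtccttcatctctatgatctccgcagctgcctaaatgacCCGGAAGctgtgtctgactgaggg
COX6B1, chr19:35648223-35648322, plus strand: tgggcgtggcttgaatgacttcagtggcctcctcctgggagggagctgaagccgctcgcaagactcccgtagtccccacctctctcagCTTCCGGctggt
SDHA holds the NRF1 letters at 2 places in the direction of the gene, UQCRC1 and UQCR11 hold them at 2 places in the opposite direction, and UQCR11 holds ETS letters as well. The median log2 fold change, AZD7762 over DMSO, was 0.097 in the 39 members with any of these letters and 0.092 in the 25 without. With the longer NRF1 form these medians were 0.094 and 0.095, so the order of these medians turned with the choice of letters.

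No member was called between AZD7762 and DMSO. Of 17649 genes, the quasi-likelihood test of edgeR called 125 (0.708%) and 0 of the 80 members, at an adjusted p (Benjamini-Hochberg) under 0.05. The smallest adjusted p of a member in that test was 0.349 (NDUFA8). At an unadjusted p under 0.05, 7 members were higher with AZD7762 (4.43% of all genes were) and 0 were lower (5.25% of all genes). With DESeq2's Wald test 0 members were called and 5 (6.25%) were under an unadjusted p of 0.05, against 6.26% of all genes. All 5 were higher with AZD7762 (2.86% of all genes) and 0 lower (3.39%). With the replicate number as a block, 0 members were called and 378 genes were, and NDUFA8 had an adjusted p of 0.0504 in edgeR's test. In that fit 30 members (37.5%) were higher with AZD7762 at an unadjusted p under 0.05, against 8.86% of all genes, and 0 were lower, against 7.2% (16.1% in both directions).

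The fold changes of the members were small and mostly of the same sign. The log2 fold change was above 0 in 74 of 80 members, against 52.4% of all genes, and below 0 in 6. The median was 0.094 in the members and 0.0076 in all genes, and the members ranged from -0.032 to 0.30. The 95% interval lay within 0.5 of 0 on the log2 scale in 75 members, and the highest upper bound was 0.74 (NDUFS7). In 6 members every AZD7762 sample was above every DMSO sample (6.81% of all genes), and in 0 members below (8.24% of all genes). The members share libraries and vary together, so their signs are not independent.

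**Figure D1:**
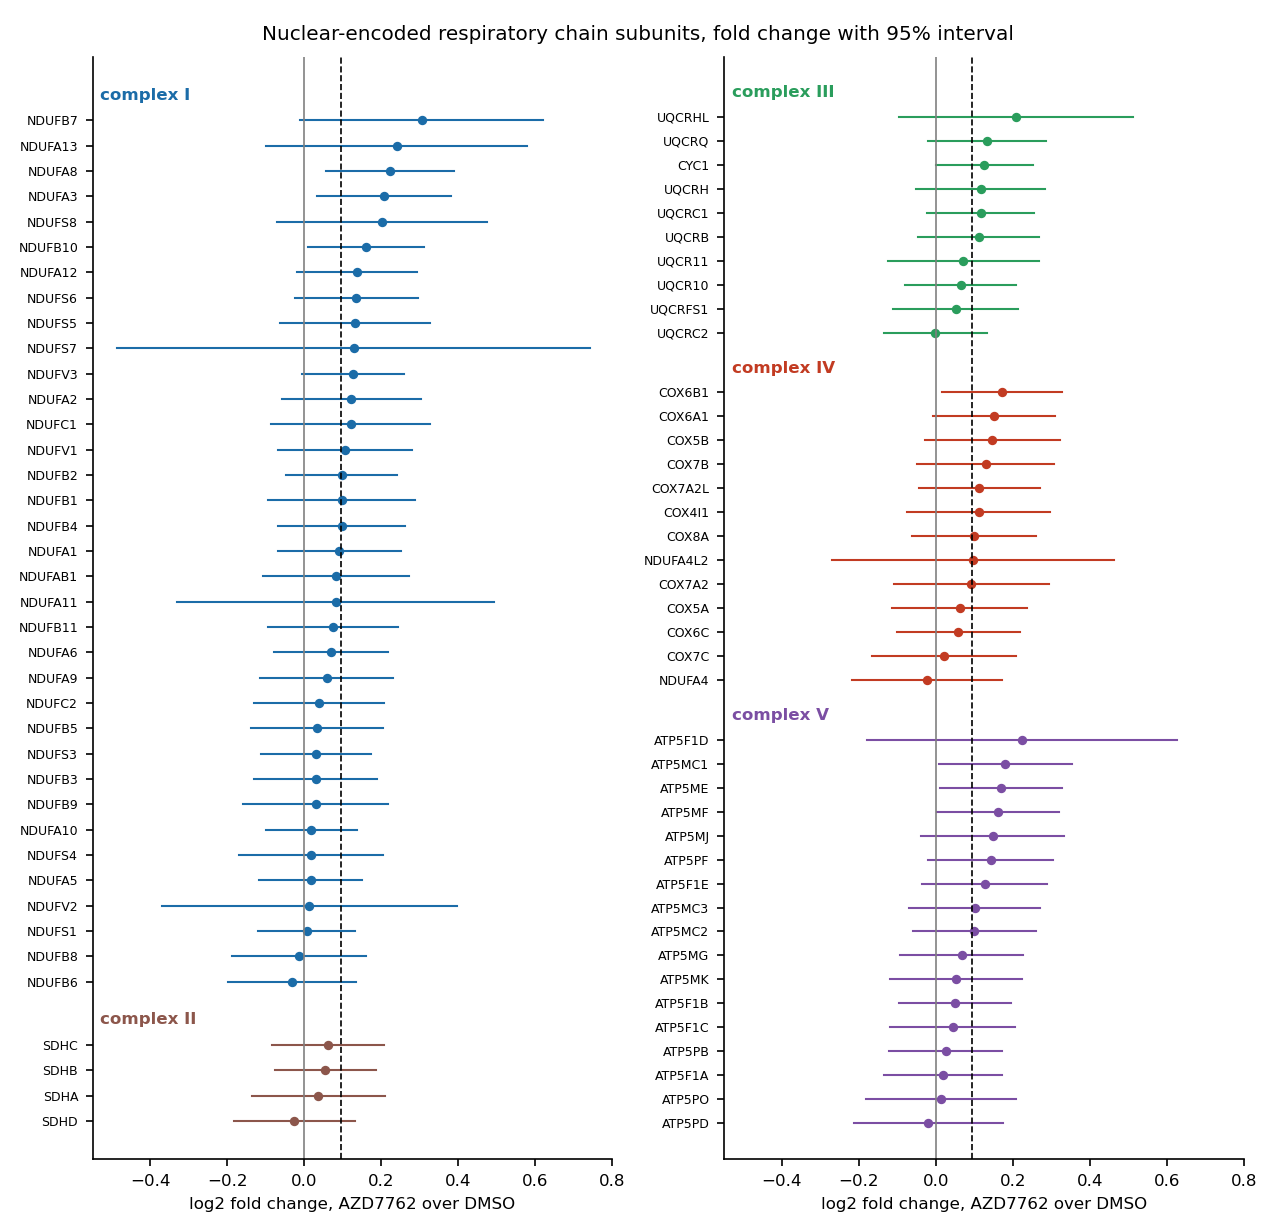
Log2 fold change of AZD7762 over DMSO on the horizontal axis for 79 of the 80 subunits, by complex, from 3 samples a group. Points are fitted values, bars 95% intervals, the grey line marks 0 and the dashed line the median of the members (0.094). Of the points drawn 73 lie above 0, and the interval of most members includes 0.

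The size of the median fold change depended in part on single libraries. Per sample, the median deviation of the members from each gene's mean over the 6 samples was 0.048, -0.055 and -0.12 on the log2 scale in DMSO replicates 1, 2 and 3. It was 0.14, 0.053 and -0.058 in AZD7762 replicates 1, 2 and 3. The groups thus overlapped: AZD7762 replicate 1 was highest, DMSO replicate 3 lowest, and AZD7762 replicate 3 lay at the level of DMSO replicate 2. In these medians, samples of the 2 groups that share a number deviated together, and within each number AZD7762 was the higher. The labels do not say that samples with the same number are pairs. Over 13878 genes, DMSO replicate 1 correlated at 0.126 with AZD7762 replicate 1 and at 0.347 with AZD7762 replicate 2. Comparisons within numbers here and below are therefore descriptions. The median difference over the members, AZD7762 minus DMSO, was 0.080, 0.12 and 0.043 on the log2 scale within numbers 1, 2 and 3. AZD7762 was above DMSO within all 3 numbers in 43 members (53.8%, against 20.5% of all genes), and below within all 3 in 0 (17.3% of all genes).

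Leaving out 1 library moved the median in both directions. Without AZD7762 replicate 1 the median log2 fold change was 0.033 and 56 members were above 0. Without DMSO replicate 3 these values were 0.059 and 61, and without DMSO replicate 2 they were 0.061 and 71. They were higher without DMSO replicate 1 (0.13 and 77) and without AZD7762 replicate 3 (0.12 and 77). Scaling by library totals alone gave 0.059 and 61, and taking trends with GC content and transcript length out of each library gave 0.049 and 66.

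Summed over the 80 members, the level was 9326, 8603 and 8277 CPM with DMSO and 9758, 9355 and 8601 CPM with AZD7762. The means were 8735 ± 536.5 and 9238 ± 587.2 (SD, n = 3), a difference of 5.75%, where the sum over all tested genes differed by 2.498% on the same scale. The ranges of the groups overlapped, while within each replicate number the sum was higher with AZD7762. Raw counts of the members made up between 0.844% and 0.964% of a library.

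Within groups the subunits varied together. Over pairs of members, the median Pearson correlation of deviations from the group means was 0.742 across the 6 samples, and 78.2% of 3160 pairs were positive. All points share library, depth and scaling, and the correlation was not computed over all genes. DMSO replicate 3 was the lowest DMSO sample in 57 of the 80 members, and in 39.9% of all genes. AZD7762 replicate 1 was the highest AZD7762 sample in 55 of the 80 members, and in 5573 of 17649 genes.

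Base composition split the members. Of the 9 members with a transcript GC content of 60% or more (NDUFA11, NDUFA13, NDUFB7, NDUFS7, NDUFS8, NDUFV1, CYC1, NDUFA4L2 and ATP5F1D), DMSO replicate 3 was the highest DMSO sample in 8 and the lowest in 0. Of the other 71 it was the lowest in 57. In the GC-rich members the median deviation was -0.14, -0.32 and 0.21 in DMSO replicates 1 to 3 and 0.28, -0.11 and 0.17 in AZD7762 replicates 1 to 3. Over all 2488 tested genes with such GC content it had the same signs, at -0.097, -0.17 and 0.16 with DMSO and 0.10, -0.099 and 0.12 with AZD7762. The median log2 fold change was 0.13 in the 9 GC-rich members, with all 9 above 0. Over the 2488 genes it was 0.082, with 71.9% above 0. With trends on GC content and length taken out of each library, the log2 fold change was 0.18 in place of 0.30 for NDUFB7. It was 0.13 in place of 0.24 for NDUFA13, 0.11 in place of 0.22 for ATP5F1D and 0.028 in place of 0.13 for CYC1. Among members of lower GC content some values rose, to 0.11 from 0.058 for NDUFA9 and to 0.17 from 0.13 for ATP5F1E. Others fell, to 0.061 from 0.16 for NDUFB10. The median over all members was 0.049 in place of 0.094. Members under the unadjusted p threshold numbered 11 in place of 7 in edgeR's test, and 0 were called. Of all 17649 genes, 2176 were under it in place of 1708 in the same test, so the rise was not confined to the members. For NDUFB7 the p was 0.0327 in place of 0.0582 in that test.

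**Figure D2:**
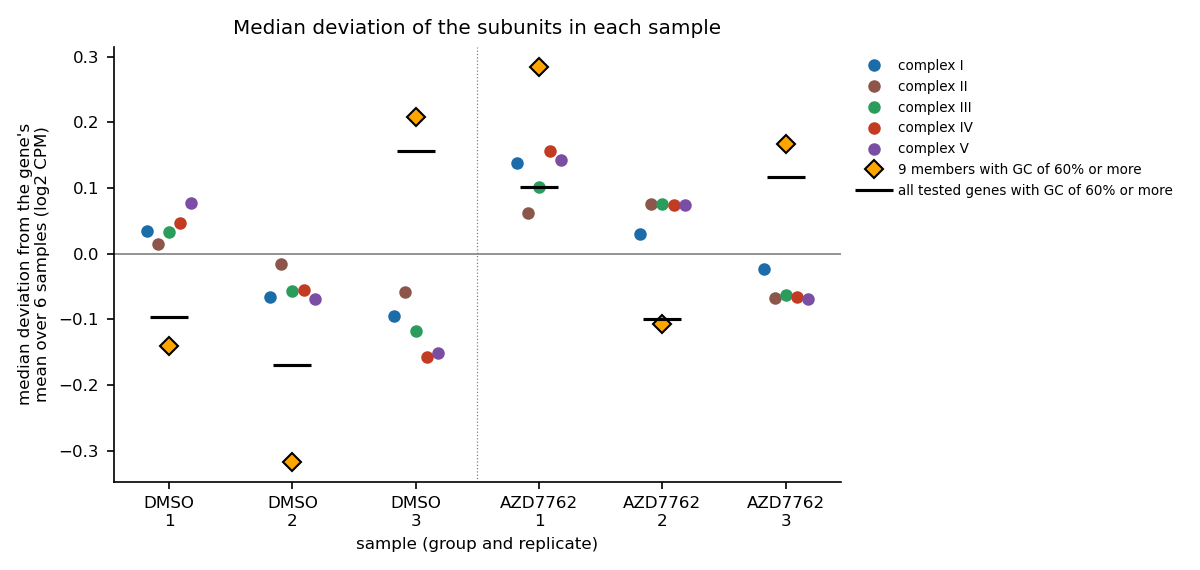
Median deviation from each gene's mean over the 6 samples (log2 CPM, vertical axis) in each sample (horizontal axis) for the members of each complex (circles), for the 9 members with a GC content of 60% or more (diamonds) and for all tested genes with such GC content (bars). The complexes move together and overlap between the groups, while the GC-rich members are high in DMSO replicate 3 (0.21).

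Transcript length was a second shared feature. The median length was 783.5 bases in the members and 2821 in all genes, and 58.75% of the members against 13.8% of all genes were under 1000 bases. The median log2 fold change was 0.11 in the 47 members under 1000 bases and 0.058 in the 33 longer ones, where it was 0.047 over all 2425 genes under 1000 bases. All 7 members at an unadjusted p under 0.05 in edgeR's test were among the shorter ones, and all 7 were higher with AZD7762. Of the 2425 genes under 1000 bases, 165 were higher and 74 lower at that p, and 59.1% had a log2 fold change above 0.

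Complex I takes electrons from NADH through its peripheral arm, made of the N and Q modules, to the membrane arm. Over its 36 members the median log2 fold change was 0.086, 34 were above 0, and 0 were called. The values of the 9 members of the N module, which holds the NADH site and most iron-sulfur clusters, had a median of 0.11, and those of the 6 members of the Q module, next to ubiquinone, one of 0.066. The summed level of complex I was 2763, 2582 and 2548 CPM with DMSO and 2917, 2762 and 2622 CPM with AZD7762, so the groups overlapped, with AZD7762 higher within each replicate number. Without AZD7762 replicate 1 the median log2 fold change of complex I was 0.023, with 24 members above 0, and without DMSO replicate 2 it was 0.057.

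NDUFB7, a small membrane-arm subunit of the intermembrane side, had the highest log2 fold change of all members. It lies at chr19:14676890-14682878 (GRCh37, minus strand), and its levels were 15.0, 14.0 and 20.5 CPM with DMSO and 23.4, 16.8 and 20.5 CPM with AZD7762. DMSO replicate 3 overlapped the AZD7762 samples. The fitted log2 fold change was 0.30 ± 0.15 (SE), with a p of 0.0582 and an adjusted p of 0.538 in edgeR's test. NDUFA13, also known as GRIM-19, was at 10.5, 10.1 and 14.5 CPM with DMSO and 16.0, 10.9 and 14.0 CPM with AZD7762. These groups overlapped as well, at a log2 fold change of 0.24 ± 0.16 and an adjusted p of 0.666 in edgeR's test. With 1 sample left out the log2 fold change ranged from 0.17 (without AZD7762 replicate 1) to 0.48 (without DMSO replicate 3) for NDUFB7, and from 0.093 to 0.41 for NDUFA13 under the same omissions. Both genes are GC-rich (64.9% and 61.6%), and both are on chromosome 19, which carries 9 of the 80 members.

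NDUFA8, a subunit with CHCH domains, had the smallest p of the members. It lies at chr9:124906337-124922058 (minus strand), and its levels were 53.8, 49.3 and 44.3 CPM with DMSO and 58.9, 59.3 and 54.0 CPM with AZD7762. The lowest AZD7762 sample was just above the highest DMSO sample. Its log2 fold change was 0.22 ± 0.077, with a p of 0.0134 and an adjusted p of 0.349 in edgeR's test. NDUFA3, an accessory subunit of the membrane arm, was at 43.4, 37.9 and 43.2 CPM with DMSO and 52.2, 44 and 47.3 CPM with AZD7762, again without overlap (p of 0.0241, adjusted p of 0.422 in edgeR's test). NDUFB10, a membrane-arm subunit, was at 50.3 ± 2.72 CPM with DMSO and 56.2 ± 3.57 CPM with AZD7762 (SD, n = 3), where the groups overlapped. NDUFV3 had a log2 fold change of 0.13, also without overlap, and was not under an unadjusted p of 0.05.

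The lowest fold changes of complex I were close to 0. NDUFB6, a membrane-arm subunit, was at 69.7, 62.4 and 63.6 CPM with DMSO and 69.6, 64.0 and 57.8 CPM with AZD7762. The log2 fold change of NDUFB6 was -0.032 with a 95% interval of -0.20 to 0.13, and that of NDUFB8 was -0.014. NDUFS1, the largest subunit, with iron-sulfur clusters, was at 278.8 ± 9.68 CPM with DMSO and 280.0 ± 9.99 CPM with AZD7762 (SD, n = 3). The log2 fold change of NDUFS1 was 0.0058 with an interval of -0.12 to 0.13. For these genes the interval covered no change beyond 0.20 on the log2 scale in either direction.

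Complex II, succinate dehydrogenase, is the member of the chain encoded wholly in the nucleus and also an enzyme of the citric acid cycle. SDHA, which binds FAD and succinate, was at 23.6, 23.8 and 25.4 CPM with DMSO and 26.5, 22.8 and 25.2 CPM with AZD7762. SDHB, the iron-sulfur subunit, was at 70.05, 69.6 and 67.8 CPM with DMSO and 73.3, 74.6 and 67.6 CPM with AZD7762. In both the groups overlapped. The membrane anchors followed, with DMSO and AZD7762 means of 93.1 ± 5.01 and 97.3 ± 6.33 CPM for SDHC and of 70.3 ± 4.03 and 69.1 ± 5.54 CPM for SDHD (SD, n = 3). The 4 log2 fold changes lay between -0.026 (SDHD) and 0.062 (SDHC), all 4 intervals were within 0.5 of 0, and the smallest adjusted p was 0.818 in edgeR's test. Their median was 0.045, and it was 0.0050 without AZD7762 replicate 1, 0.020 without AZD7762 replicate 2 and 0.068 without AZD7762 replicate 3. The summed level of complex II was 265.8, 257.4 and 247.5 CPM with DMSO and 270.8, 272.6 and 245.7 CPM with AZD7762. The groups overlapped, and AZD7762 was higher within numbers 1 and 2 but lower within number 3.

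In complex III, the cytochrome bc1 complex, the median log2 fold change over 10 members was 0.11, 9 were above 0, and 0 were called. Its summed level was 1062, 998.0 and 960.5 CPM with DMSO and 1122, 1105 and 1002 CPM with AZD7762, higher within each replicate number. The median was 0.055 without AZD7762 replicate 1, 0.063 without DMSO replicate 3 and 0.076 without AZD7762 replicate 2. CYC1, cytochrome c1, carries the heme that hands electrons to cytochrome c. Its levels were 116.4, 108.7 and 112.6 CPM with DMSO and 126.2, 124.3 and 118.0 CPM with AZD7762. The groups did not overlap, and the log2 fold change was 0.13 ± 0.058, with a p of 0.0504 and an adjusted p of 0.518 in edgeR's test. UQCRC1, a core protein that faces the matrix, was at 229.4, 211.3 and 202.9 CPM with DMSO and 242.5, 233.7 and 221.8 CPM with AZD7762. Its groups overlapped, while the other core protein, UQCRC2, had a log2 fold change of -0.001 with an interval of -0.13 to 0.13.

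Complex IV, cytochrome c oxidase, reduces oxygen, and its nuclear subunits surround a core made in mitochondria. The median log2 fold change over its 13 members was 0.099, 12 were above 0, and 0 were called. Its summed level was 1712, 1540 and 1474 CPM with DMSO and 1818, 1700 and 1542 CPM with AZD7762, and the groups overlapped, with AZD7762 higher within each replicate number. The median was 0.038 without AZD7762 replicate 1 and 0.065 without DMSO replicate 3, and it was 0.16 without DMSO replicate 1 and 0.17 without AZD7762 replicate 3. COX6B1, which faces the intermembrane space, was at 122.5, 115.4 and 104.9 CPM with DMSO and 136.7, 129.5 and 119.8 CPM with AZD7762. AZD7762 replicate 3 was below DMSO replicate 1, so the groups overlapped, and the log2 fold change was 0.17 ± 0.072 (p of 0.0344, adjusted p of 0.466 in edgeR's test). NDUFA4, found in complex IV despite its name, was at 27.1, 24.1 and 22.4 CPM with DMSO and 23.9, 26.1 and 22.5 CPM with AZD7762, and the fitted log2 fold change was -0.023.

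Several subunits of complex IV have alternative isoforms, and the form used in most tissues was the more abundant one in each pair. COX4I1 was at 295.6 ± 29.8 CPM with DMSO and 319.4 ± 31.9 CPM with AZD7762 (SD, n = 3), while COX4I2, known from lung and from low oxygen, had at most 1 count in any library. COX6A1 was at 146.8 ± 9.87 and 163.0 ± 13.2 CPM, and the heart and muscle form COX6A2 had 0 counts in all 6 libraries. COX7A2 was at 114.3 and 122.0 CPM on average, and the muscle form COX7A1 had at most 2 counts. COX7B was at 90.6 and 99.2 CPM, with COX7B2 at 0 counts, and COX8A was at 169.3 and 181.3 CPM, with COX8C at 3 counts or fewer. COX6B2, known from testis, was above the floor of 3 counts in every library, with 4 to 15 counts (0.318 CPM on average), far below COX6B1. NDUFA4L2, a relative of NDUFA4, was present at 2.48 CPM. The 0 counts allow a level of up to 0.102 to 0.146 CPM in a library. COX7A2L, which takes part in supercomplexes, was at 112.2 and 121.4 CPM.

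Just inside the 1 CPM limit of the list stood NDUFA4L2, with a mean of 2.39 CPM with DMSO and 2.56 with AZD7762, followed by NDUFV2 and UQCRHL. Just outside stood NDUFA7 (0.473 CPM), then COX6B2 (0.318 CPM). The other genes left out were COX4I2, COX6A2, COX7A1, COX7B2, COX8C, ATP5MGL and the readthrough genes ATP5MF-PTCD1 and NDUFC2-KCTD14.

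In complex V, ATP synthase, the median log2 fold change over 17 members was 0.0999, 16 were above 0, and 0 were called. Its summed level was 3522, 3225 and 3047 CPM with DMSO and 3629, 3515 and 3188 CPM with AZD7762, and here too the groups overlapped, with AZD7762 higher within each replicate number. The median was 0.037 without AZD7762 replicate 1 and 0.049 without DMSO replicate 3, and it was 0.16 without DMSO replicate 1 and 0.15 without AZD7762 replicate 3. ATP5F1B, the catalytic β subunit of the F1 head, was the most abundant member in CPM, at 701.2, 640.4 and 619.6 with DMSO and 702.2, 685.2 and 642.9 with AZD7762. ATP5F1A, the α subunit, was at 656.7, 606.5 and 576.2 CPM with DMSO and 639.0, 648.6 and 575.1 CPM with AZD7762. The groups overlapped in both, at log2 fold changes of 0.050 and 0.018. ATP5F1D, the δ subunit of the central stalk, was at 14.0, 9.59 and 17.9 CPM with DMSO and 18.4, 12.96 and 16.5 CPM with AZD7762. It has the highest GC content of the members (69.6%), its groups overlapped, and the log2 fold change was 0.22 ± 0.19 (adjusted p of 0.753 in edgeR's test). This value rested on single samples, at 0.0075 without DMSO replicate 2, 0.095 without AZD7762 replicate 1, 0.35 without AZD7762 replicate 2 and 0.44 without DMSO replicate 3. ATP5F1E, the ε subunit, was at 529.0 ± 40.3 CPM with DMSO and 577.6 ± 44.1 CPM with AZD7762 (SD, n = 3).

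The c ring, which turns with the proton flow, is made of 1 mature protein encoded by 3 genes. ATP5MC1 was at 82.9, 73.4 and 67.5 CPM with DMSO and 90.1, 84.7 and 79.2 CPM with AZD7762, and the groups overlapped (log2 fold change 0.18 ± 0.079, p of 0.0406, adjusted p of 0.483 in edgeR's test). ATP5MC2 and ATP5MC3 had log2 fold changes of 0.0999 and 0.10. Per length, ATP5MC2 had the highest level of these genes at 354.0 CPM per kb of transcript, against 123.3 for ATP5MC1 and 88.96 for ATP5MC3. Among the membrane subunits, ATP5ME was at 57.1 ± 2.71 CPM with DMSO and 64.2 ± 5.67 CPM with AZD7762, where AZD7762 replicate 2 was just above DMSO replicate 1 (p of 0.0387, adjusted p of 0.48 in edgeR's test). ATP5MF had a p of 0.0461. The peripheral stalk had a median of 0.020, with ATP5PD at -0.020.

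Core catalytic subunits, which bind substrates, flavins, hemes, iron-sulfur clusters or nucleotides or form the F1 rotor, numbered 18, and their median log2 fold change was 0.053, with 17 above 0. The other 62 members had a median of 0.097, with 57 above 0. No core catalytic subunit and 7 of the others were at an unadjusted p under 0.05 in edgeR's test, all 7 higher with AZD7762 (4.43% of all genes). These are the same 7 members counted above, with transcripts under 1000 bases.

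Per-length levels, given as mean CPM per kb of the annotated transcript over the 6 samples, differed widely within complexes. They ranged from 2.67 (NDUFA9) to 339.9 (NDUFB11) in complex I, from 9.12 (SDHA) to 72.8 (SDHC) in complex II and from 17.4 (UQCRHL) to 140.2 (UQCRC1) in complex III. In complex IV the range was 2.63 (NDUFA4L2) to 403.0 (COX4I1), and in complex V it was 15.0 (ATP5F1D) to 378.2 (ATP5F1B). The length used matters: the annotated transcript of NDUFA9 is 8356 bases long, and that of NDUFS1 11660 bases.

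Several low values belonged to genes that lie on other annotated genes. In 32 of 80 members exons overlapped exons of another gene, and in 7 this covered 50% or more of the transcript. These 7 had a median of 12.3 CPM per kb, and the other 73 one of 85.9. NDUFA11, NDUFA13 and NDUFS7, among the 7, are also GC-rich. The GC-rich members without overlap ranged from 15.0 (ATP5F1D) to 98.8 CPM per kb (CYC1), with NDUFB7 at 34.3. NDUFV2, a flavoprotein subunit of the NADH site at chr18:9102628-9134343 (plus strand), was overlapped over 90.0% of its transcript and stood at 3.83 CPM per kb, while its partner in that module, NDUFV1, without overlap, stood at 56.7. NDUFA13 was overlapped over 83.9%, SDHA over 69.4%, NDUFA11 over 68.2% and NDUFS7 over 51.3%. The genes that overlap these 5 were at 0.335 CPM or less in every sample. NDUFB8 (72.0%) and ATP5PO (63.8%) were overlapped as well and stood at 50.3 and 74.4 CPM per kb. Of the genes that overlap them, HIF1AN (131 CPM on average) and LINC00649 (24.3 CPM) were expressed. The others were at 0.0479 CPM or less in every sample. Genes on the same strand covered 72.0% of NDUFB8 and 63.8% of ATP5PO, and genes on the opposite strand 2.51% and 6.88%. These shares were not split by overlapping gene, so the part covered by an expressed gene is not given. NDUFA7, just below the limit of the list, was overlapped over 77.9%. HTSeq-count in its default mode leaves reads on exons of several genes out of all of them. A low count of an overlapping gene then need not give its level. The mode used is not given in the sources used here, and the parts of overlap and base composition in the levels were not tested.

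**Figure D3:**
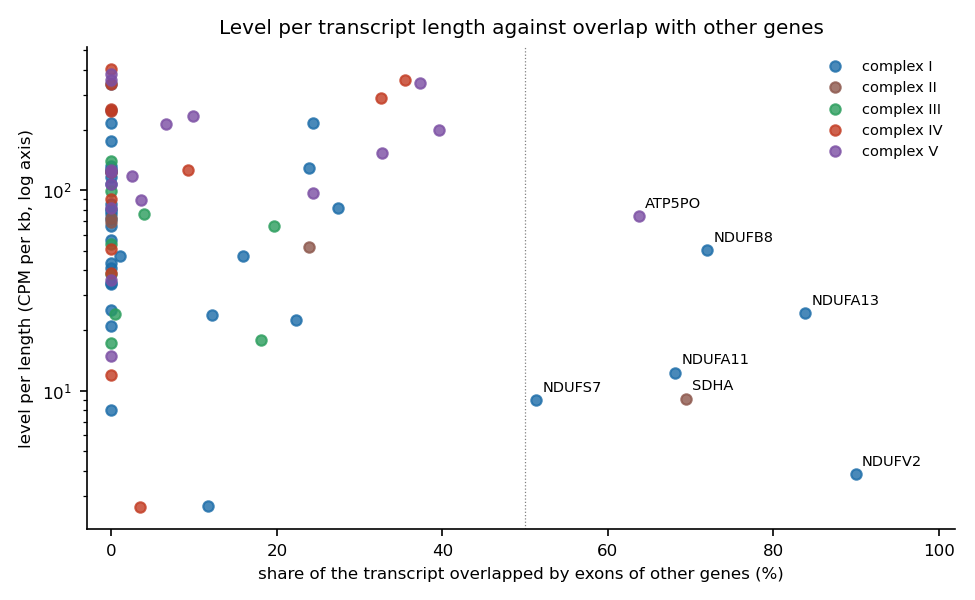
Mean level per transcript length (CPM per kb, log axis) against the share of the transcript overlapped by exons of other genes (%), 1 point for each of the 80 members, coloured by complex. The 7 named members with 50% or more overlapped have a median of 12.3 CPM per kb, against 85.9 for the rest.

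Levels of these genes, and of UQCRH and its copy UQCRHL (32.7% and 53.1% of their 51-base words are shared with other genes), are therefore uncertain. In the 46 members without overlap or copy the median log2 fold change was 0.095, with 44 above 0 and 0 called.

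Genes that build or control the chain gave few differences. Of 53 assembly factors and the like, 52 were tested and 0 were called. A log2 fold change above 0 was found in 36 (69.2%, against 52.4% of all genes), and the median was 0.042. ATP5IF1, the ATP synthase inhibitor, was at 85.6 ± 2.75 CPM with DMSO and 97.5 ± 5.62 CPM with AZD7762 (SD, n = 3), without overlap (p of 0.00997, adjusted p of 0.321 in edgeR's test). ECSIT, a complex I assembly factor, had a log2 fold change of 0.30 ± 0.10, and COX17, a copper chaperone, one of 0.16 ± 0.068. COA7, another complex IV assembly factor, had one of -0.16 ± 0.067.

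Of 15 carriers and regulators 14 were tested, 0 were called, 7 had a log2 fold change above 0 and 7 below. Among the factors whose letters were searched in the promoters, NRF1 was at 27.1 ± 1.60 CPM with DMSO and 30.8 ± 1.27 CPM with AZD7762 (p of 0.0285, adjusted p of 0.443 in edgeR's test). GABPA was at 59.1 and 59.5 CPM and YY1 at 154.3 and 155.9 CPM on average. The coactivator PPARGC1A was too low to be tested, at 0.147 and 0.197 CPM. CYCS, cytochrome c, was at 120.0 ± 7.97 and 115.5 ± 4.67 CPM, and TFAM, which packages mitochondrial DNA, at 103.6 ± 3.29 and 103.5 ± 6.54 CPM (SD, n = 3).

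The 13 subunits encoded in mitochondrial DNA differed from the nuclear ones in which samples were low. Their summed level was 14490, 19910 and 19590 CPM with DMSO and 21620, 21730 and 25240 CPM with AZD7762. DMSO replicate 1, which was the highest DMSO sample in the nuclear sum, was the lowest here, and AZD7762 replicate 3, the lowest AZD7762 sample in the nuclear sum, was the highest. All 13 log2 fold changes were above 0 (52.4% of all genes), with a median of 0.30, and 1 gene was called (0.708% of all genes). The median was 0.17 without DMSO replicate 1 and 0.19 without AZD7762 replicate 3, the samples at the ends of the summed level. MT-ND3, a complex I subunit, was at 616.5 ± 50.6 CPM with DMSO and 821.2 ± 70.04 CPM with AZD7762 (SD, n = 3). The log2 fold change of MT-ND3 was 0.41 ± 0.079, with an adjusted p of 0.0317 in edgeR's test. Without DMSO replicate 1 its adjusted p in edgeR's test was 0.15, and 0 of the 13 were called. With the replicate block 11 were (378 of 17649 genes over all), and with no filter on low counts 13 were (330 of 34742). DESeq2's Wald test called 3 (175 of 17649), and the fit with GC and length trends taken out called 2 (264 of 17649). In edgeR's test the call of MT-ND3 was also lost without AZD7762 replicate 1 (adjusted p of 0.274), without AZD7762 replicate 2 (0.127) and under library totals alone (0.0544). The difference between the nuclear and mitochondrial lists was not tested.

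**Figure D4:**
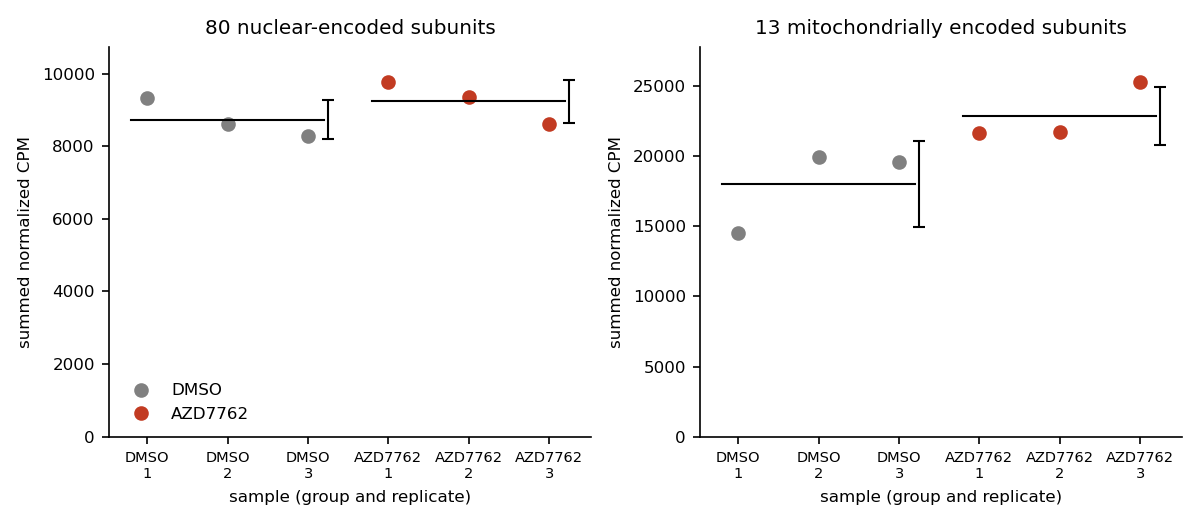
Summed normalized CPM (vertical axis) of the 80 nuclear-encoded subunits and of the 13 mitochondrially encoded subunits in each of the 6 samples. Points are samples, horizontal lines group means and bars SD (n = 3). The nuclear sums of the groups overlap (8735 and 9238 CPM on average), and DMSO replicate 1 is highest of its group on the left and lowest on the right.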

How the data were processed

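RNA-seq counts of 6 samples of EndoC-βH1 cells were used, 3 with DMSO and 3 with AZD7762, grouped by the labels. The authors checked reads with FastQC 0.10.1, trimmed them with cutadapt 1.18, aligned to GRCh37 and obtained gene counts from HTSeq-count, deposited as whole numbers with no scaling. The strand setting is not given in the sources used here, and libraries were made with an unstranded or a stranded kit, not named per sample, so genes that overlap on either strand are uncertain.

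Symbols, positions (GRCh37), GC content and the length of the canonical transcript came from GENCODE v44 mapped to GRCh37, which matched 58646 of 60671 identifiers. The analysis used edgeR 4.0.16 in R 4.3.3 (filterByExpr, TMM factors between 0.983 and 1.02, two-sided quasi-likelihood test on treatment alone, Benjamini-Hochberg adjustment over all 17649 genes). TMM scales each library so that most genes keep their level. The biological coefficient of variation was 7.15%. Standard errors are the fitted log2 fold change over the square root of F. Levels per length are CPM per kb. The members were chosen, and all lists written, with earlier results of these data known. The named members were any called member, the 3 highest and 3 lowest log2 fold changes, the highest and lowest level per length of each complex, and genes with isoforms or copies. Further genes were named, and the promoter windows and the shorter NRF1 letters chosen, after values were seen. In counts and medians all 80 members enter, while 1 member is not reported here by itself.

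The deviations of same-numbered samples from their group means correlated at 0.126, 0.267 and 0.385 over 13878 genes, so the numbers were treated as pairs in an alternative fit, although DMSO replicate 1 correlated best with AZD7762 replicate 2 (0.347). Replicates of a group were not copies of each other (chi-square per gene of their counts 4.92 to 9.53). The procedures were tested on simulated counts. Alternatives were DESeq2 1.42.0 (size factors, Wald test), library totals alone, other filters, the replicate block, GC and length offsets, and leaving out each sample.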

Additional observations from a re-analysis of the deposited data

How the results depend on the processing

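No setting called a member. The count of 0 called members held with DESeq2's size factors and Wald test, library totals, no filter, a filter of at least 10 counts in every sample, the replicate block, GC and length offsets, and each sample left out. The median log2 fold change of the members lay between 0.033 and 0.13 over these settings. The number of genes called was 125, and it was 330 with no filter, 378 with the replicate block and 264 with GC and length trends taken out, and 77 to 168 with 1 sample left out (77 without AZD7762 replicate 1). Where samples share a number and the replicate block was used, no member changed its side of the threshold. Some came close to it, with adjusted p in edgeR's test of 0.0504 for NDUFA8, 0.0625 for COX6B1 and 0.0700 for ATP5MC1.

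Single members near 0 changed sign. With GC and length trends taken out the log2 fold change was -0.026 for NDUFB11, -0.024 for NDUFA4L2, -0.028 for NDUFA11 and -0.0085 for NDUFV2. With library totals alone it was -0.030 for NDUFS1, -0.017 for ATP5F1A and -0.023 for NDUFV2. With 1 sample left out, values ranged from -0.11 to 0.036 for NDUFB6, -0.074 to 0.039 for SDHD, -0.087 to 0.053 for NDUFA4, -0.016 to 0.13 for NDUFB11, -0.022 to 0.088 for SDHA, -0.042 to 0.18 for NDUFA4L2, -0.096 to 0.63 for NDUFS7, -0.062 to 0.35 for NDUFA11, -0.019 to 0.027 for NDUFS1, -0.022 to 0.071 for ATP5F1A, -0.11 to 0.20 for NDUFV2, -0.067 to 0.045 for NDUFB8, -0.029 to 0.038 for UQCRC2 and -0.11 to 0.069 for ATP5PD. The cause was not tested. The settings for MT-ND3, whose log2 fold change ranged from 0.34 to 0.47 with 1 sample left out, were chosen after seeing the data. NDUFS7 and NDUFA11, at means of 6.82 and 7.07 CPM, had the widest intervals of the members. The intervals of NDUFA4L2, NDUFV2 and UQCRHL, at lower levels, were narrower.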

Other observations

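Among genes outside the list of subunits, those that act on mitochondrial transcription gave no call, as did the whole list of carriers and regulators. TFB1M, a mitochondrial rRNA methyltransferase, fitted at a log2 fold change of -0.23 ± 0.11, had means of 10.02 ± 1.37 and 8.57 ± 0.0706 CPM (SD, n = 3) in the DMSO and AZD7762 groups. TFB2M, a transcription factor of mitochondrial DNA, had means of 12.0 ± 0.740 and 10.5 ± 0.232 CPM (SD, n = 3). In both genes every AZD7762 sample was below every DMSO sample, with an adjusted p of 0.548 for each in edgeR's test. Of the 14 carriers and regulators tested, 2 were lower without overlap (8.24% of all genes) and 1 was higher (6.81% of all genes). POLRMT, the mitochondrial RNA polymerase, had a log2 fold change of 0.051 ± 0.14, and LRPPRC, which stabilizes mitochondrial mRNAs, one of -0.038 ± 0.055.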
